A study of Mus musculus with 5 samples.

Results

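A pooled CRISPR screen of mouse embryonic stem cells carried 17820 guide RNAs, of which 1000 were non-targeting controls and 16820 were directed at 1682 genes, in a library labelled as one for transcription factors (TF). The guides described here are the 1000 whose entry in the gene column starts with NonTargeting. They were grouped by the number of G plus C bases among their 20 bases. The low class had 9 or fewer such bases (202 guides), the middle class 10 to 12 (594 guides) and the high class 13 or more (204 guides). Reads per guide were counted in 2 libraries of the plasmid pool (Maxiprep replicates 1 and 2) and, for the transduced cells, in single libraries of days 5, 8 and 12. The genotype is given as Ainv15(iNgn2 Tubb3::GFP) and the treatment as "No treatment" for all 5 samples, the plasmid samples included. The cells were transduced with concentrated lentivirus in polybrene and kept in ES cell medium with Zeocin throughout. The sample titles count days after transduction, whereas the protocol dates day 5 from selection, so the days are used as names here, and as numbers only by the trend test near the end.

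A guide RNA leads Cas9 to the DNA that matches its first part, and a cell that loses a gene it needs is outgrown, taking its guide out of the pool. Non-targeting guides are designed to match no site in the genome. They mark the share that a guide keeps when nothing is cut, and gene guides are judged against them. Base composition is a known source of differences between guides, since it affects synthesis of the pool, amplification of the guide cassette by PCR, and pairing of the RNA. A run of T bases is also known to end transcription by RNA polymerase III, which makes most guide RNAs.

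The guides below show the range of composition and of outcome in the 3 classes, with G and C in capitals. In each class they are the guide with the lowest, the one nearest the median and the one with the highest change at day 12. They are followed by 2 guides with the fewest and 2 with the most G and C (of equal guides, those with more plasmid reads), and by guides that passed a test described further on.
NonTargeting_Mouse_0356 (low class, lowest): GCGtaCCtatCGataaaCCa
NonTargeting_Mouse_0300 (low class, nearest the median): CattGtaGaCtCGtaCGGat
NonTargeting_Mouse_0819 (low class, highest): ttatCGtaCtaGtaCGtaCa
NonTargeting_Mouse_0181 (middle class, lowest): GGCttataGaCGaGaCtCGa
NonTargeting_Mouse_0075 (middle class, nearest the median): aatGaaGCaCCGattGCGGa
NonTargeting_Mouse_0342 (middle class, highest): tGtaaCGatCtGGGCGGtCt
NonTargeting_Mouse_0704 (high class, lowest): aGtGCCGGGGGtGtataCCG
NonTargeting_Mouse_0750 (high class, nearest the median): GtGCCaGCGtCGattGaCGC
NonTargeting_Mouse_0245 (high class, highest): CGGtCGtGaCaGaCCtGGtG
NonTargeting_Mouse_0876 (6 G plus C, the fewest): taattCtttaGtaCGtGCaa
NonTargeting_Mouse_0412 (7 G plus C): tCtCGaataaattttCtCGC
NonTargeting_Mouse_0724 (16 G plus C, the most): CaCaCGCCGCGGGCCGtGaG
NonTargeting_Mouse_0958 (16 G plus C): CtGGGGCCGCtGaaCCGCCG
NonTargeting_Mouse_0959 (called higher in cells): aGaCtCGtGtGCCaCGaGGa
NonTargeting_Mouse_0685 (called higher in cells): CtCGatGCCaCGGaaGGCGG
NonTargeting_Mouse_0776 (called lower in cells): atCGatattGataaaCGCGa
NonTargeting_Mouse_0249 (called lower in cells): CaatatCtaaGCGCtaaCGa

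The control label was checked against the other guides and against promoters. The closest guide to a gene differed from a non-targeting guide at 4 or more of the 20 bases, with a median of 7. The closest other non-targeting guide differed at 5 or more. In 32851 mouse promoter sequences of RefSeq (build GRCm38.p6, both strands), 0 non-targeting guides and 122 guides to genes matched all 20 bases next to an NGG. The rest of the genome was not searched. Nearly all of the 16820 guides to genes had no match in these promoters either, so the 0 is a weak check of the control label. Composition differed between the sets: non-targeting guides had a mean of 5.31 G, 5.74 C, 4.40 A and 4.56 T bases, against 5.59 G, 5.16 C, 5.00 A and 4.25 T in guides to genes. The low class held 20.2% of non-targeting guides and 27.4% of guides to genes, and the high class held 20.4% and 20.1%.

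The plasmid libraries held 3541896 and 1350234 reads, and the cell libraries 1063071 (day 5), 1082489 (day 8) and 1008492 (day 12). Non-targeting guides are 5.61% of the guides. They took 5.38% and 5.59% of the plasmid reads, and 7.36%, 8.00% and 8.05% of the cell reads in order of day. Their median was 158 and 62 plasmid reads, then 63, 70.5 and 64 reads in the cells. All but 1 had reads in every library. That guide, NonTargeting_Mouse_0697 of the low class (taaCtCtaatGCGttCCaaG), had 39 and 23 plasmid reads, 2 at day 5, 6 at day 8 and 0 at day 12, and is named because of that 0. With 1 library per time point no change below has replicate cultures, and it is not stated whether the days were drawn from 1 culture.

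The raw reads already showed the classes part between the plasmid pool and day 5. The low class had a median of 152.5 and 57.5 plasmid reads, then 44, 48.5 and 44 reads in the cells from day 5 to day 12. The middle class had 156.5 and 62.5 reads in the plasmid libraries, and 65.5, 71.5 and 66 in the cells. The high class had 165.5 and 68 reads in the plasmid libraries, and 78, 87.5 and 84.5 in the cells. The class medians lay close together in the plasmid pool, and in each cell library the high class stood well above the low class.

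As a share of all non-targeting reads, which uses no filter and no scaling between libraries, the low class made up 19.9% and 18.9% of the plasmid libraries, then 14.9%, 15.2% and 15.1% of the cell libraries from day 5 to day 12. The high class made up 21.3% and 21.5% of the plasmid libraries, then 25.0%, 24.3% and 24.5% of the cell libraries. The middle class made up 58.7% and 59.7% in the plasmid libraries, and 60.0%, 60.5% and 60.4% in the cells. The cell libraries and the plasmid libraries did not overlap in any class. The low class averaged 15.1% ± 0.10 over the cell libraries and 19.4% ± 0.76 over the plasmid libraries (SD, n = 3 and 2), and the high class 24.6% ± 0.37 and 21.4% ± 0.090. An exact two-sided permutation test over libraries gave p = 0.2 for each class, which is the smallest p that 3 against 2 libraries allow.

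For the changes of single guides, only those with at least 30 reads in both plasmid libraries were used. This kept 893 non-targeting guides: 173 in the low, 529 in the middle and 191 in the high class. The filter removed 14.4% of the low, 10.9% of the middle and 6.37% of the high class, so it did not act evenly on composition. Counts were scaled to a common library total (CPM) with TMM factors computed over all 15336 kept guides. A change is the log2 ratio of CPM plus 1 in 1 library to CPM plus 1 in another, or in the mean of the plasmid libraries. On this scale 0 is close to the typical guide of the library, the median of all kept guides at day 12 being -0.017.

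At day 5 the median log2 change against the plasmid pool was 0.060 in the low class (SD 0.66, n = 173), 0.41 in the middle class (SD 0.48, n = 529) and 0.60 in the high class (SD 0.43, n = 191). The low-class value was 0.0016 without plasmid library 1, 0.11 without plasmid library 2 and 0.14 with at least 100 plasmid reads. At day 8 the medians were 0.24, 0.56 and 0.71. At day 12 they were 0.15 in the low class (SD 0.82), 0.60 in the middle class (SD 0.65) and 0.77 in the high class (SD 0.52). The high class exceeded the low class by 0.54, 0.47 and 0.61 on these days. Plasmid library 2 against plasmid library 1, 2 libraries of the same pool, gave medians of 0.0042 in the low, 0.061 in the middle and 0.062 in the high class, a difference of 0.058 between high and low. The gap between classes in the cells was thus several times the gap between libraries of 1 group. The guides themselves overlapped widely: the 5th to 95th percentile at day 12 ran from -1.37 to 1.30 in the low class and from -0.058 to 1.65 in the high class.

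The guides nearest each class median were picked by their value at day 12, so they stand for their class on that day only. At day 5 their changes were 0.19 (low), 0.015 (middle) and 0.49 (high), which is not the order of the class medians. NonTargeting_Mouse_0300, nearest the median of the low class, had 73 and 37 plasmid reads, then 29, 29 and 25 reads in the cells, a log2 change of 0.15 at day 12. NonTargeting_Mouse_0075, nearest the median of the middle class, had 177 and 77 plasmid reads, then 57, 69 and 76 reads at days 5, 8 and 12, a change of 0.60. NonTargeting_Mouse_0750, nearest the median of the high class, had 270 and 107 plasmid reads, then 116, 136 and 124 reads, a change of 0.77. After scaling, this high-class guide stood at 75.1 and 77.2 CPM in the plasmid libraries and at 108, 125 and 130 CPM in the cells. The low-class guide stood at 20.3 and 26.7 CPM in the plasmid libraries and at 26.9, 26.7 and 26.3 CPM in the cells.

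Within the time course the class medians lay close together. Day 8 against day 5 gave a median of 0.13 in the low, 0.12 in the middle and 0.12 in the high class. Day 12 against day 8 gave 0.051, 0.059 and 0.027, and day 12 against day 5 gave 0.16, 0.17 and 0.19. The difference between high and low for day 12 against day 5 was 0.027, which is smaller than the 0.058 between the plasmid libraries. The separation by composition was present at day 5, the first library of cells. Whether it widened after that was not settled: the high-minus-low difference for day 12 against day 5 was 0.058 with at least 100 plasmid reads and -0.057 with classes of 8 or fewer and 14 or more. Plasmid DNA and cells differ in transduction, selection, growth and source of the template at once, and these steps cannot be told apart here.

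Medians by single G plus C number show where the class limits fall. Guides with 7 G plus C bases had a median of -0.62 at day 5 (11 guides), those with 8 had -0.19 (50 guides) and those with 9 had 0.12 (111 guides). Just above the first limit, guides with 10 had 0.33 (177 guides). Guides with 11 had 0.43 and guides with 12 had 0.43 (164 and 188 guides), and just above the second limit those with 13 had 0.55 (93 guides). Guides with 14 had 0.66 (69 guides), with 15 0.51 (25 guides) and with 16 0.67 (4 guides). At day 5 the steps between neighbouring numbers were wider below 10 than above it. At day 12 the medians were -0.82 with 7 (11 guides), 0.10 with 8, 0.21 with 9, 0.53 with 10 and 0.61 with 11. The step across the first limit was wider than those beside it, but the step from 7 to 8 was wider still. Across the second limit the medians were 0.64 with 12 and 0.70 with 13. The single kept guide with 6 G plus C bases, NonTargeting_Mouse_0876, went against this course. It had 101 and 32 plasmid reads, then 28, 33 and 31 reads in the cells, changes of 0.022 at day 5 and 0.34 at day 12. NonTargeting_Mouse_0412, with 7, had 489 and 124 plasmid reads, then 47, 60 and 60 reads, a change of -1.35 at day 5 and -0.83 at day 12.

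A straight line through the 893 guides gave 0.126, 0.121 and 0.125 log2 units per added G or C on days 5, 8 and 12. The slope of day 12 against day 5 was -0.0014, and that of plasmid library 2 against library 1 was 0.0098. A difference of 4 G or C bases corresponds to a 1.42-fold difference at day 5 on this line. Pearson's r between change and G plus C number was 0.41 at day 5 and 0.32 at day 12 (Spearman's rho 0.39 and 0.29), across 893 guides that share their libraries, so composition went with 17.0% and 10.5% of the variance. In levels, the slope of log2 CPM on G plus C number was 0.012 and 0.022 in the plasmid libraries and 0.143, 0.138 and 0.142 at days 5, 8 and 12. The slope held at all plasmid abundances. In 3 equal groups of guides from low to high plasmid abundance it was 0.122, 0.149 and 0.113 at day 5 and 0.112, 0.146 and 0.121 at day 12.

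G and C did not count alike. With the numbers of G, C and A fitted together, replacing 1 T by G went with 0.145 log2 units at day 5, replacing 1 T by C with 0.067, and replacing 1 T by A with -0.042. At day 12 these values were 0.139, 0.049 and -0.064. Pearson's r with the change at day 5 was 0.39 for the number of G, 0.063 for the number of C, -0.33 for A and -0.14 for T. Between the plasmid libraries the order was another one: the number of C had r = 0.14 and the number of G r = -0.080. Guides to genes gave 0.113 for G, 0.057 for C and -0.067 for A in place of T at day 5, the same order on 14443 other guides of the same libraries.

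The number of G also went with the change at day 5 within each class and at 11 G plus C. Among middle-class guides, those with 4 or fewer G had a median of 0.28 at day 5 (SD 0.55, n = 156), those with 5 or 6 had 0.43 (SD 0.45, n = 260) and those with 7 or more had 0.44 (SD 0.37, n = 113). At day 12 these medians were 0.42, 0.67 and 0.64. The mean G plus C number rose as well over these groups, at 10.76, 10.97 and 11.50. With G plus C held at 11, the 3 groups had medians of 0.33, 0.43 and 0.48 at day 5 (49, 83 and 32 guides). At day 12 they had 0.48, 0.69 and 0.63, with the highest in the group of 5 or 6. In the low class, guides with 4 or fewer G had -0.011 at day 5 (n = 111) and those with 5 or 6 had 0.28 (n = 60), the other 2 guides having 7 or more. Their mean G plus C numbers were 8.45 and 8.77. In the high class the 3 groups had medians of 0.43, 0.57 and 0.66 at day 5 (21, 66 and 104 guides) and 0.50, 0.77 and 0.81 at day 12. Mean G plus C numbers there were 13.67, 13.53 and 13.79. The groups by number of G, like the base-by-base values that follow, were chosen after the values were seen.

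The place of the bases was examined with G and C pooled and base by base. G plus C in bases 11 to 20, next to the PAM, had r = 0.27 with the change at day 5, and G plus C in bases 1 to 10 had r = 0.23. Counting from the 5′ end, G or C at base 15 had r = 0.25, and at each of the other 19 positions r lay between -0.016 and 0.108. Guides with A at base 15 had a median of 0.19 at day 5 (SD 0.67, n = 171), with T 0.35 (SD 0.60, n = 200), with C 0.43 (SD 0.45, n = 278) and with G 0.48 (SD 0.46, n = 244). At base 16 it was G alone that stood higher, at 0.53 (n = 244), against 0.32 for C, 0.36 for T and 0.37 for A. At base 20, T and G had 0.50 and 0.47, against 0.32 for C and 0.25 for A. Guides to genes had r = 0.13 for G or C at base 15, with 0.16 at base 14 and 0.15 at base 20 above it.

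Base 15 went with the median change of the low class. Low-class guides with G or C there had a median of 0.29 at day 5 (SD 0.53, n = 79) and those with A or T had -0.24 (SD 0.68, n = 94), at mean G plus C numbers of 8.52 and 8.61. The whole low class had an SD of 0.66, so the guides with A or T were as widely spread as the class. At day 12 the medians were 0.38 and -0.068, and 3.80% against 18.1% of these guides lay below -1. In the middle class the medians at day 5 were 0.43 and 0.34, and in the high class 0.61 and 0.57. Between the plasmid libraries the low-class medians were 0.048 and -0.0048. Low-class guides to genes had -0.30 with G or C at base 15 and -0.44 with A or T at day 5, a smaller gap. The difference between these gaps was not tested.

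At the first base the medians differed between the plasmid libraries. Plasmid library 2 against library 1 gave a median of -0.12 for guides starting with G (n = 222), 0.048 with C (n = 247), 0.11 with A (n = 192) and 0.17 with T (n = 232). Guides to genes gave -0.11, 0.065, -0.012 and 0.086. At day 5 non-targeting guides starting with G, C, A and T had medians of 0.39, 0.40, 0.43 and 0.41, and at day 12 of 0.51, 0.61, 0.59 and 0.60. A run of 4 or more T occurred in 18 kept guides, with a median of 0.20 at day 5, against 0.41 in the other 875. Of these 18, 7 were in the low class. Runs of 4 or more G occurred in 31 guides, with a median of 0.41 at day 5, against 0.41 in the other 862. Runs of 4 or more A occurred in 17, with -0.021, against 0.41 in the other 876. Of these 17, 9 were in the low class, with -0.60, and 7 in the middle class, with 0.44 against 0.41 in the other 522. At day 12 the guides with such a run of A had -0.086 against 0.59 over all classes. In the middle class they had 0.26 against 0.60 on that day.

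The low class was also the most dispersed. A robust SD, taken from the median absolute deviation, was 0.59 in the low, 0.39 in the middle and 0.33 in the high class at day 5, and 0.80, 0.57 and 0.51 at day 12. The spread that read counting alone gives was 0.23, 0.20 and 0.19 at day 5, so the observed spread was 2.59, 1.94 and 1.76 times the counting spread. Between the plasmid libraries it was 1.52, 1.39 and 1.45 times. For day 12 against day 5 the ratio was 1.83, 1.90 and 1.95, alike in the classes. The counting spread includes the lower depth of the low class in cells. Unfiltered, the 90th percentile of reads was 5.25, 5.17 and 4.10 times the 10th percentile in plasmid library 1, and 10.5, 7.26 and 5.61 times at day 12.

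A plain cut on fold change would class control guides unevenly. At day 12, 20 of 173 low-class guides (11.6%) had a log2 change below -1, with 10 of 529 (1.89%) in the middle and 0 of 191 in the high class. Over all 15336 kept guides 20.4% lay below -1. At day 5 the counts were 20, 8 and 2, against 12.4% of all guides, and at day 8 they were 17, 7 and 0, against 16.9%. Low-class guides thus made up most of the controls below -1 at each time. Above 1 at day 12 lay 17 low-class (9.83%), 123 middle-class (23.3%) and 58 high-class guides (30.4%), against 8.26% of all guides. At day 5 there were 2, 36 and 29, against 1.62% of all guides, and at day 8 there were 8, 66 and 39, against 3.31%. Of the high class 93.7% lay above 0 at day 12, and of the low class 60.1%.

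Most of the extremes of each class were on the same side of 0 at day 5 and at day 12. NonTargeting_Mouse_0356, the lowest of the low class, had 335 and 126 plasmid reads, then 39, 25 and 13 reads, a change of -2.67 at day 12. NonTargeting_Mouse_0819, the highest of the low class, had 281 and 113 plasmid reads, then 164, 204 and 265 reads, a change of 1.79. It has 7 G plus C bases and C at base 15. NonTargeting_Mouse_0181, the lowest of the middle class, had 186 and 59 plasmid reads, then 23, 22 and 9 reads, a change of -2.20. NonTargeting_Mouse_0342, the highest of the middle class and of all non-targeting guides, had 171 and 69 plasmid reads, then 111, 153 and 333 reads, a change of 2.82. Its reads at day 12 were 3 times those at day 5, while the class median moved by 0.17 on the log2 scale. In the high class the lowest guide, NonTargeting_Mouse_0704, had 150 and 37 plasmid reads, then 47, 34 and 17 reads, a change of -0.90. It had a change of 0.34 at day 5, so its place below 0 came later. The highest, NonTargeting_Mouse_0245, had 159 and 35 plasmid reads, then 68, 87 and 149 reads, a change of 2.14, and its plasmid libraries differed by -0.78. These guides were picked for their values at day 12, which are given as a description. Of the 4 guides with 16 G plus C, the 2 with most plasmid reads were not extreme: NonTargeting_Mouse_0724 had 451 and 212 plasmid reads and 219, 245 and 218 reads in cells (0.71 at day 12), and NonTargeting_Mouse_0958 had 336 and 111 plasmid reads and 141, 141 and 109 in cells (0.40).

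The 3 cell libraries were also set against the 2 plasmid libraries in 1 model over all guides, edgeR's quasi-likelihood test with Benjamini-Hochberg adjustment over 15336 guides and a threshold of 0.05. The time points stand in for replicates in this fit, and if they are serial samples of 1 culture its p-values are too small. In all, 11.6% of guides were called higher and 17.0% lower in cells. Of the low class 27 of 173 guides rose and 21 fell. Of the middle class 206 of 529 rose and 11 fell, and of the high class 109 of 191 rose and 0 fell (0 also at an unadjusted p under 0.05, and 0 by DESeq2). In percent, 15.6% of the low, 38.9% of the middle and 57.1% of the high class rose, against 11.6% of all guides. Guides to genes had a gradient by class too: 3.37%, 9.26% and 19.9% rose, and 32.4%, 14.9% and 7.02% fell. The counts depended on single libraries. Without plasmid library 1, 10 non-targeting guides rose and 0 fell, where 0.215% of all guides rose and 1.28% fell. Without plasmid library 2, 34 rose and 5 fell, where 0.809% of all guides rose and 3.5% fell. Without day 8, 104 rose and 16 fell, where 2.82% of all guides rose and 8.33% fell. With either plasmid library left out, the high class had 5 and 15 guides called higher and 0 lower. Without day 5 or without day 12 it had 121 higher and 0 lower each time, where 18.9% and 12.4% of all guides rose and 24.4% and 18.7% fell. Without day 8 it had 40 higher and 0 lower.

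In the low and the middle class these directions depended on the scaling, and most guides that enter the TMM factors are directed at genes. With factors taken from the summed non-targeting reads in place of TMM, the median of all kept guides at day 12 moved by -0.65 and the split turned in the low and the middle class. Such factors hold the summed non-targeting reads level between libraries, so guides on both sides of 0 follow from that choice. In the fit with these factors 4 low-class guides rose and 53 fell. Of the middle class 27 guides rose and 44 fell, and of the high class 20 rose and 1 fell. Over all guides 1.3% rose and 37.8% fell in that fit, against 30.6% of the low class and 8.32% of the middle class that fell. On this scale the class medians at day 12 were -0.48, -0.055 and 0.11. The order of the classes was kept, and the gap between them nearly so, since a scaling factor moves all guides of a library together.

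The guides called with the lowest p were chosen by a fit that treats the days as replicates, which favours guides at 1 level on all 3 days, so their courses are given as a description. NonTargeting_Mouse_0959 of the middle class had 156 and 54 plasmid reads, then 178, 197 and 156 reads (43.4 and 39.0 CPM, then 165, 181 and 164 CPM; edgeR log2 change 2.03, adjusted p = 0.000546). NonTargeting_Mouse_0685 of the high class had 188 and 83 plasmid reads, then 204, 199 and 183 reads (edgeR log2 change 1.76, adjusted p = 0.000546). NonTargeting_Mouse_0776 of the low class had 239 and 77 plasmid reads, then 18, 18 and 16 reads (edgeR log2 change -1.88, adjusted p = 0.00135). NonTargeting_Mouse_0249 of the low class had 175 and 58 plasmid reads, then 12, 15 and 9 reads (edgeR log2 change -1.98, adjusted p = 0.00254). Guides picked for their value at day 12 had other courses, such as the 39, 25 and 13 reads of NonTargeting_Mouse_0356.

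A trend on the day number, with the plasmid libraries at day 0, was tested in the same way. It takes the days as numbers, although the day they are counted from is in doubt. A guide that changed only between plasmid and cells can pass this test too. NonTargeting_Mouse_0776, with 18, 18 and 16 reads in the cells, had an edgeR adjusted p of 0.000594. A call is therefore no sign of a change among the days. The trend test called 40.7% of all guides, 17.8% higher and 22.9% lower. Among non-targeting guides 42 low-class guides rose and 28 fell, 253 middle-class guides rose and 15 fell, and 111 high-class guides rose and 0 fell. NonTargeting_Mouse_0342 rose by 0.23 log2 units per day (edgeR adjusted p = 7.91e-07), and NonTargeting_Mouse_0356 fell by 0.24 per day (edgeR adjusted p = 9.00e-06). Without plasmid library 1, 206 non-targeting guides rose and 15 fell (9.15% and 14.3% of all guides), and without plasmid library 2, 258 rose and 14 fell (10.2% and 15.9% of all guides).

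Guides to genes of the same class served as the comparison within each library. At day 12 the median was 0.15 for non-targeting and -0.53 for gene guides in the low class, 0.60 and -0.025 in the middle class, and 0.77 and 0.30 in the high class. The differences were 0.69, 0.62 and 0.47. At day 5 they were 0.44, 0.40 and 0.37. The slope on G plus C number was close in both sets at day 5, 0.126 in non-targeting and 0.123 in gene guides. At day 12 it was 0.125 in non-targeting guides and 0.161 in gene guides, and for day 12 against day 5 it was -0.0014 and 0.038. For day 12 against day 5, the class medians of non-targeting guides (0.16, 0.17 and 0.19) lay close together, and those of gene guides (-0.14, -0.047 and 0.064) lay further apart. Gene guides also differed by composition between the plasmid libraries. Plasmid library 2 against library 1 gave them class medians of -0.11, 0.032 and 0.025 and a slope of 0.026. The difference between the sets was not tested, as each rests on single libraries.

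Over all classes the non-targeting median exceeded the median of gene guides by 0.43 at day 5 and 0.65 at day 12. Taken within each G plus C number and weighted by the non-targeting guides, the difference was 0.37, 0.53 and 0.58 in order of day. Between the plasmid libraries the same measure was 0.045. Different G plus C numbers of the sets thus went with 0.061 of the offset at day 5 and 0.071 at day 12. The larger share of the offset remained among guides of equal G plus C number. The numbers of the single bases, which also differed between the sets, were not matched.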

How the data were processed

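The deposited files hold raw read counts per guide, 1 file per library, per the file headers and the values. Cutadapt, Bowtie, featureCounts and the build mm10 appear in the list of tools, per the submitters' processing notes, with no version. What the guide reads were aligned to is not given in the sources used here. Guide sequences are those of the files. Guides were kept with 30 or more reads in both plasmid libraries. Scaling and tests used edgeR 4.0.16 in R 4.3.3 (TMM, glmQLFit, glmQLFTest, 3 residual degrees of freedom), with DESeq2 1.42.0 as an alternative, and the rest Python 3.11.15 with SciPy 1.17.1. The members, the classes and the tests were chosen with earlier results of these data known. Named guides are the lowest, median and highest of each class at day 12, 2 with fewest and 2 with most G plus C (ties by higher plasmid reads), and the 2 lowest p in each direction. Guides of 1 library share that library and are not replicates, so medians and slopes carry no p. Reads without molecular identifiers are not separate cells, and counting spreads cover sequencing only. On counts simulated for the comparison of cells with plasmid (15336 guides), the test called 20 of 50 guides lowered by 1 log2 unit, 32 of 50 raised by 1, all 50 lowered by 2, all 50 raised by 2, and 9 of 15136 unchanged guides. The simulated libraries were independent, with 1 common dispersion for all guides and few guides changed. In the real libraries 28.6% of guides were called, and the days may share a culture. The simulation therefore does not give the error rate of the test on these data.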

Additional observations from a re-analysis of the deposited data

How the results depend on the processing

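The order of the classes, low below middle below high, held at days 5 and 12 under every alternative tried, while sizes moved. With total counts as the scaling, the class medians at day 12 were 0.044, 0.49 and 0.65. With factors from non-targeting reads they were -0.36, -0.020 and 0.18 at day 5 and -0.48, -0.055 and 0.11 at day 12, turning the sign in the low and middle class. With a pseudocount of 5 the high-class median at day 12 was 0.73, the slopes at days 5 and 12 were both 0.116, and the low-class difference from gene guides was 0.62. With at least 100 plasmid reads 226 non-targeting guides were left. The low-class medians were then 0.14 at day 5 and 0.26 at day 12, the high-class median at day 12 was 0.73, and high minus low was 0.48 and 0.47. The slopes were 0.090 at day 5 and 0.105 at day 12, and that of day 12 against day 5 turned, to 0.015. The differences from gene guides were 0.80 in the low and 0.40 in the high class. With classes of 8 or fewer and 14 or more, the low-class medians were -0.23 at day 5, where the sign turned, and 0.066 at day 12, and the high-class medians 0.64 and 0.80. High minus low was then 0.87 at day 5, 0.74 at day 12 and -0.057 for day 12 against day 5, where the sign turned. The middle-class share of non-targeting reads differed by -0.34 percentage points between cells and plasmid under these limits, against 1.13. Theil-Sen slopes were 0.106 at day 5 and 0.107 at day 12.

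With 1 plasmid library left out in turn, the low-class median lay between 0.0016 and 0.11 at day 5 and between 0.19 and 0.22 at day 12, and the high-class median at day 5 between 0.56 and 0.67. High minus low at day 12 lay between 0.52 and 0.60, and the low-class difference from gene guides between 0.69 and 0.79. With both plasmid libraries, the low-class median at day 12 (0.15) was below its range here. High minus low at day 12 (0.61) was then above its range. With any 1 of the 5 libraries left out, cells against plasmid called 10 to 442 non-targeting guides higher and 0 to 48 lower by edgeR (1 to 41 and 0 to 30 in the low class, 5 to 121 higher in the high class), and the trend called 206 to 451 higher and 14 to 50 lower. With 1 plasmid library, the fit assumes that it varies like the cell libraries. With factors from non-targeting reads 51 were called higher and 98 lower (4 and 53 in the low, 20 and 1 in the high class), and by trend 77 and 131. Of all guides 1.3% were called higher and 37.8% lower with these factors, and by trend 2.84% and 47%. With at least 100 plasmid reads 124 and 9 were called (11 and 6 in the low class, 38 higher in the high class), and by trend 137 and 11. Fewer guides were tested there, and of all of them 16.2% were called higher and 20.4% lower, and by trend 22.1% and 25.6%. DESeq2 called 25 lower by trend, and 18.8% of all guides. The cause was not tested for the shifts other than those from the scaling, the class limits and the smaller number of guides or libraries. No paired analysis was possible because the time points have 1 library each.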
